A study of Mus musculus with 6 samples.

Results

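The genes that control entry into the cell cycle from G1 were followed in mouse heart ventricles 1 day (P1) and 2 days (P2) after birth. The set holds 9 genes, taken by symbol: the D-type cyclins Ccnd1, Ccnd2 and Ccnd3, the kinases Cdk4, Cdk6 and Cdk2, and the pocket proteins Rb1, Rbl1 and Rbl2. All 9 were found among the 39171 genes of the deposited table and among the 13624 genes tested, so no member was lost to the filter on low values. The animals were wild-type CD-1 mice, an outbred stock, with no treatment or altered allele named in the labels. Polyadenylated RNA of the ventricles, without the atria, was sequenced in 3 libraries at P1 and 3 at P2. The labels do not say whether each library stands for a single animal, and every p-value here measures only the spread among the 3 libraries of an age, which may be technical. Values are FPKM, a name that stands for fragments per kilobase of transcript scaled to the mapped fragments. Which scaling between libraries was used is not given. Because values are divided by length, levels of different genes are set side by side. That order is approximate, since the annotation is not given and all members except Rbl1 share exon bases with a neighbour.

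D-type cyclins are made in response to growth signals and bind Cdk4 or Cdk6. The active kinases phosphorylate the pocket proteins, which otherwise hold E2F transcription factors inactive, and Cdk2 with E-type cyclins then completes that phosphorylation and starts DNA synthesis. In the mouse heart, cardiomyocytes still divide at birth and largely leave the cell cycle within the first week, and the comparison of P2 with P1 falls inside that period.

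Whole ventricle holds several cell types, and in such bulk samples fewer cells of a type and less RNA per cell cannot be told apart. The FPKM sum per library was between 716968 and 754510 at P1 and between 807632 and 858436 at P2, and 13355 to 13429 genes reached 1 FPKM. Counts and absolute depth are not in the table. Cardiomyocyte markers were abundant, with a summed level of 10829 to 11417 FPKM at P1 and 11672 to 11851 at P2 over the 7 markers above 0 in every library. Of the other cardiomyocyte markers, Myh6 and Myl2 were listed at 0 in all libraries and Tnnt2 in all P1 libraries; an exact 0 for genes this tissue uses can be a failed estimate. The summed levels of other markers also moved with age. Those of 6 endothelial markers were 246 to 273 FPKM at P1 and 282 to 288 at P2, those of 5 atrial markers 947 to 1498 and 541 to 771, those of 6 erythroid markers 961 to 1358 and 754 to 953, and those of 5 epicardial markers 41.5 to 46.1 and 32.5 to 40.1. Fibroblast markers (6 genes, 893 to 1018 and 968 to 1140 FPKM) and leukocyte markers (5 genes, 21.3 to 34.01 and 18.7 to 23.3; the T-cell marker Cd3e was listed at 0 in some libraries and left out of the sum) overlapped between the ages, and 6 smooth muscle and pericyte markers did not (146 to 156 and 163 to 180). Of the smooth muscle and pericyte markers taken singly, 4 were higher and 2 lower at P2, with a median log2 change of 0.03 and 0 called. All 5 atrial markers were lower, with a median log2 change of -0.999 and 1 called. Of 8 tested cardiomyocyte markers, 7 were higher and 1 lower, with a median of 0.06 and 1 called. The other lists had 0 called. The part of cell composition in the results below was not tested.

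RefSeq promoter windows on GRCm38.p6 were matched for 6 of the 9 members, and 250 bases before each start site were searched on both strands for the E-box CACGTG, the core site of Myc and Max, and for the E2F site in the forms TTTCCCGC, TTTCGCGC, TTTGCCGC and TTTGGCGC. The stretches shown are those of Cdk4, the kinase with P2 values below all P1 values, and of Rbl1 and Rbl2, whose ratio did not overlap between the ages. Bases inside an annotated exon were left out, and capitals mark E-boxes in Cdk4 and the E2F site in Rbl1.
Cdk4: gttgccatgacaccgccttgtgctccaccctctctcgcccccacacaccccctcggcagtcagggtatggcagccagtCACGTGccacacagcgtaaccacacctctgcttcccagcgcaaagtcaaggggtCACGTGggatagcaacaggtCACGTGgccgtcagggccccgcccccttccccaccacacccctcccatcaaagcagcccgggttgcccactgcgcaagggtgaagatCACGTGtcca
Rbl1: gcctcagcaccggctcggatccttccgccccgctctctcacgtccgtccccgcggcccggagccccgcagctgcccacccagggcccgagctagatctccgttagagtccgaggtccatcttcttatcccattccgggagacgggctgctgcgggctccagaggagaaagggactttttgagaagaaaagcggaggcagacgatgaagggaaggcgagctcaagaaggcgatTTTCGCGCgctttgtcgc
Rbl2: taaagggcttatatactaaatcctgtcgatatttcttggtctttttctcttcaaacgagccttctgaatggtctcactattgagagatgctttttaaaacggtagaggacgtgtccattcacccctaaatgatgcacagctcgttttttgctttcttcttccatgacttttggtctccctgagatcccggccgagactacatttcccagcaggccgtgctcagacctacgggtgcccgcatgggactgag
They lie at chr10:127063285-127063533 on the plus strand, chr2:157204535-157204784 on the minus strand and chr8:91069807-91070056 on the plus strand, each written 5′ to 3′ along its gene. Cdk4 held 4 E-boxes, starting 172, 118, 98 and 11 bases before the start site. At least 1 E-box was present in 6.02% of all 32851 windows of this length, and at least 4 in 0.0213% (7 windows). Rbl1 held 1 E2F site, 18 bases before the start, a site present in 1.86% of windows. Rbl2 held neither motif. Cdk6 held 1 E-box 220 bases before its start, Cdk2 held 1 E2F site 140 bases before its start, and both Ccnd3 windows held neither. Such matches describe letters only and show no binding.

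No member passed the test between the ages. With limma on log2(FPKM + 1) and Benjamini-Hochberg adjustment over all 13624 genes, 0 of the 9 were called at an adjusted p under 0.05, where 0.161% of all tested genes were (0.0734% higher and 0.0881% lower at P2). At an unadjusted p under 0.05 there were 2, against 18.6% of all genes: Rb1 higher, as were 10.7% of all genes, and Cdk4 lower, as were 7.89%. The ages did not overlap for 3 members, against 25% of all genes. All P2 libraries lay above all P1 libraries for Rb1 and Cdk6, a pattern found for 14.4% of all genes, and below them for Cdk4, found for 10.6%. The other 6 members overlapped between the ages. Among the members 5 had a higher and 4 a lower log2 value at P2, where 54.7% of all genes were higher, and the median change was 0.03 against 0.01 for all genes. The library sums were larger at P2, and with all sums made equal the median of all genes moved to -0.14 and 1 member was higher and 8 lower. With median ratio scaling that median was 0.003, and 5 members were higher and 4 lower, with 0 called.

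**Figure D1:**
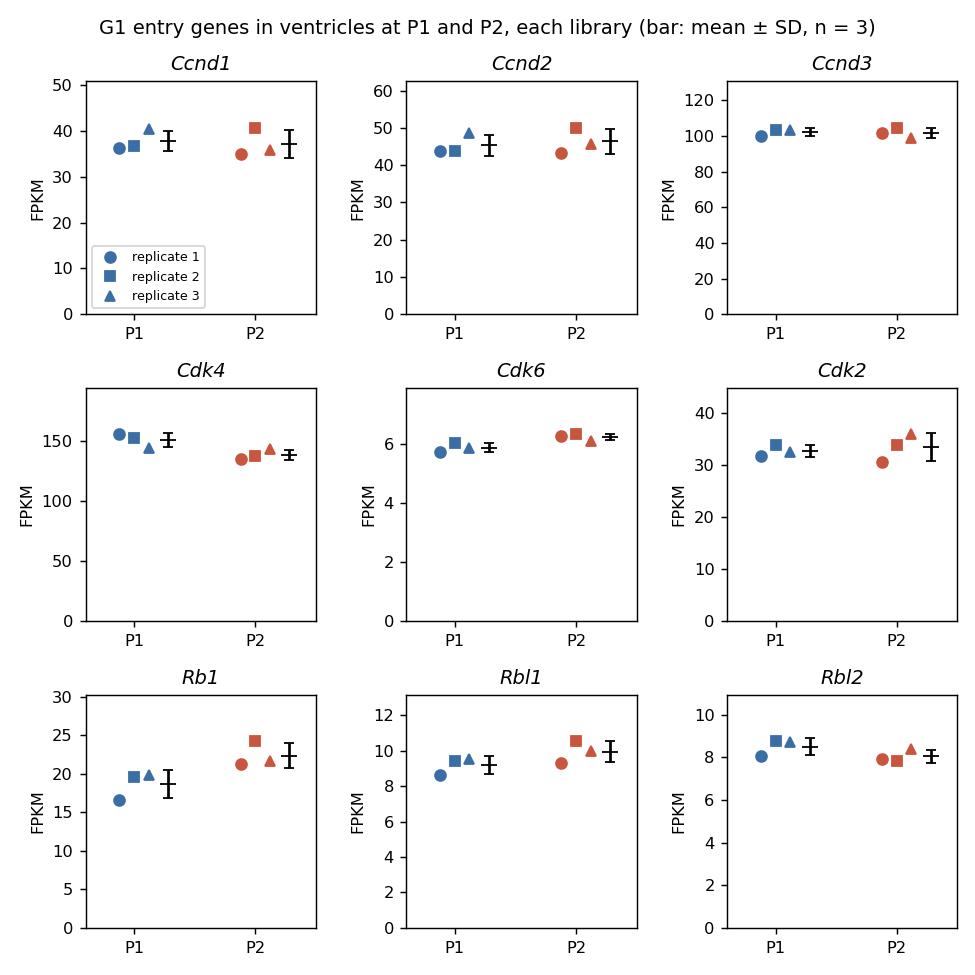
FPKM of the 9 genes (vertical axes, each from 0) in each library at P1 and P2; symbols mark the replicate number and black bars the mean ± SD of 3 libraries. The ages separate for Cdk4 (134.6 to 142.7 at P2, below 143.6 to 155.1 at P1), Cdk6 and Rb1, and overlap for the other 6 genes.

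The members spanned a wide range of levels, and their order was much the same in every library. By the mean over the 6 libraries Cdk4 was highest at 144 FPKM, followed by Ccnd3 (102), Ccnd2 (45.8), Ccnd1 (37.5), Cdk2 (33.1), Rb1 (20.5), Rbl1 (9.57), Rbl2 (8.27) and Cdk6 (6.05). Cdk4 stood above 96.1% of the tested genes, and Cdk6 above 33.1%. The ranges over the libraries did not overlap between neighbours in this order except between Ccnd1 and Cdk2 and between Rbl1 and Rbl2. Ccnd1 exceeded Cdk2 in 5 of 6 libraries, and Rbl1 exceeded Rbl2 in 6 of 6.

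Ccnd3 was the most abundant D-type cyclin in these ventricles. It was measured at 99.7, 103.1 and 103.6 FPKM in P1 replicates 1 to 3 and at 101.7, 104.6 and 98.7 in P2 replicates 1 to 3. The P1 values lay within the span of the P2 values. The means were 102.1 ± 2.13 and 101.7 ± 2.99 (SD, n = 3 each), and the log2 change was -0.01 ± 0.04 (SE; limma, adjusted p = 0.942), with a 95% interval from -0.10 to 0.08. This was the narrowest interval among the members, a fold of 0.934 to 1.06 on the deposited scale. With equal library sums the log2 change was -0.18 (limma, adjusted p = 0.0672), or -0.04 relative to the median of all genes.

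Ccnd2, the D-type cyclin whose overexpression is known to prolong cardiomyocyte cycling in transgenic mice, was at 43.7, 43.7 and 48.5 FPKM at P1 and at 43.3, 50.04 and 45.7 at P2. Ccnd1, the form most closely tied to growth factor signalling, was at 36.3, 36.8 and 40.4 FPKM at P1 and at 34.9, 40.7 and 35.8 at P2. Both genes were highest in the same libraries, replicate 3 at P1 and replicate 2 at P2, and the ages overlapped for both. The log2 change was 0.03 ± 0.07 for Ccnd2 (interval -0.14 to 0.20; limma, adjusted p = 0.832) and -0.03 ± 0.07 for Ccnd1 (interval -0.20 to 0.15; adjusted p = 0.871). With equal library sums the log2 changes were -0.14 (limma, adjusted p = 0.255) and -0.19 (adjusted p = 0.146). Relative to the median of all genes these were 0.001 for Ccnd2 and -0.06 for Ccnd1. Across the 6 libraries the log2 values of Ccnd1 and Ccnd2 had a Pearson r of 0.913, a description of values that share library and scaling.

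The make-up of the D-type cyclin pool was nearly the same at the ages. Ccnd3 made up 55.2% ± 1.20 of the summed D-type cyclin FPKM at P1 and 54.9% ± 1.49 at P2, Ccnd2 24.4% ± 0.717 and 25.01% ± 0.821, and Ccnd1 20.4% ± 0.493 and 20.05% ± 0.728. The sum itself was 185.2 ± 6.51 FPKM at P1 and 185.2 ± 8.85 at P2. Shares overlapped between the ages for each cyclin (exact permutation test, two-sided, p = 0.4 for Ccnd1, 0.4 for Ccnd2 and 0.9 for Ccnd3), and with 3 libraries against 3 this test cannot go below p = 0.1. The ratio of Ccnd1 to Ccnd2, which does not depend on scaling between libraries, was 0.831, 0.843 and 0.832 at P1 and 0.806, 0.814 and 0.785 at P2. It was lower in every P2 library by a small margin (log2 difference -0.06; exact permutation p = 0.1). The ratios of Ccnd1 to Ccnd3 and of Ccnd2 to Ccnd3 overlapped between the ages (exact permutation p = 0.7 for each). Of all pairs of tested genes above 0 in every library, 26% had a ratio that did not overlap.

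Cdk4, the D-type cyclin kinase with the higher level in this tissue, was lower in every P2 library than in any P1 library. It was at 155.1, 152.02 and 143.6 FPKM in P1 replicates 1 to 3 and at 134.6, 137.1 and 142.7 in P2 replicates 1 to 3. The ages did not overlap, but the lowest P1 library (143.6) and the highest P2 library (142.7) were close together. The means were 150.3 ± 5.93 and 138.1 ± 4.17 FPKM, and the log2 change was -0.12 ± 0.04 (interval -0.23 to -0.01). It did not pass the test over all genes (limma, adjusted p = 0.235), and 14.3% of all tested genes had a smaller p. With equal library sums it was called lower (-0.29; limma, adjusted p = 0.0278), at -0.15 relative to the median of all genes. With these sums 2394 of all 13624 genes were called lower.

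Cdk6, the other kinase partner of the D-type cyclins, was present at a much lower level, with every P2 library above every P1 library. With equal library sums, however, its log2 change was -0.07, or 0.06 relative to the median of all genes. Cdk6 was at 5.72, 6.02 and 5.88 FPKM at P1 and at 6.26, 6.33 and 6.12 at P2. The groups did not overlap, and the log2 change was 0.07 ± 0.04 (interval -0.03 to 0.18; limma, adjusted p = 0.400). Cdk6 made up 3.77% ± 0.191 of the summed FPKM of both kinases at P1 and 4.32% ± 0.186 at P2. The ratio of Cdk4 to Cdk6 was 27.1, 25.2 and 24.4 at P1 and 21.5, 21.7 and 23.3 at P2, lower in every P2 library (log2 difference -0.21; exact permutation p = 0.1, the smallest this design gives).

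Cdk2, the partner of cyclins E and A, was at 31.8, 33.9 and 32.4 FPKM at P1 and at 30.5, 33.9 and 35.9 at P2. The P2 libraries spread around the P1 libraries on both sides. The log2 change was 0.03 ± 0.07 (interval -0.13 to 0.19; limma, adjusted p = 0.842). Relative to Cdk2, Cdk4 was 4.60 ± 0.247 times as abundant at P1 and 4.14 ± 0.235 times at P2, and the ages did not overlap for this ratio either, though P1 replicate 3 (4.43) and P2 replicate 1 (4.41) were almost equal.

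**Figure D2:**
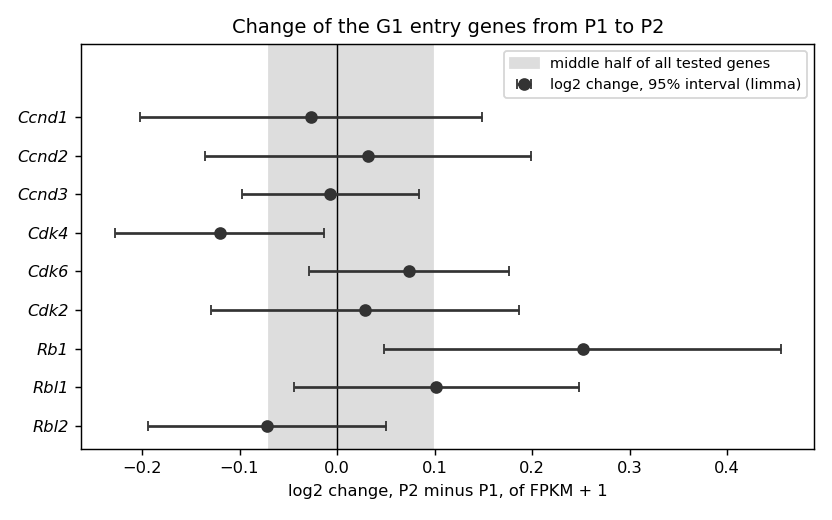
Log2 change from P1 to P2 of FPKM + 1 (horizontal axis) for each gene, with points for the limma estimate, bars for its 95% interval and grey for the interquartile range of all 13624 tested genes (-0.07 to 0.10). The intervals of Rb1 (0.05 to 0.46) and Cdk4 (-0.23 to -0.01) leave out 0 before adjustment, and the other 7 include it.

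Rb1, the retinoblastoma protein and the founding pocket protein, had the largest log2 difference among the members on the deposited scale, though not with equal library sums. It was at 16.6, 19.5 and 19.8 FPKM in P1 replicates 1 to 3 and at 21.3, 24.2 and 21.6 in P2 replicates 1 to 3. Every P2 library was above every P1 library, and P1 replicate 1 was the lowest of all. The means were 18.7 ± 1.79 and 22.4 ± 1.62 FPKM, a log2 change of 0.25 ± 0.08 (interval 0.05 to 0.46), which did not pass over all genes (limma, adjusted p = 0.208; 0.153 to 0.587 over the alternatives). Of all tested genes, 11.1% had a smaller p. Without P1 replicate 1 the log2 change was 0.17 (limma, adjusted p = 0.368), and with equal library sums it was 0.09 (adjusted p = 0.464), or 0.23 above the median of all genes.

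The related pocket proteins Rbl1 (p107) and Rbl2 (p130) had changes of opposite sign, although with equal library sums both were negative (-0.05 and -0.22). Relative to the median of all genes, the changes with equal sums were 0.08 for Rbl1 and -0.09 for Rbl2. Rbl1, which is known to be most abundant in cycling cells, was at 8.63, 9.45 and 9.52 FPKM at P1 and at 9.32, 10.5 and 9.99 at P2, a log2 change of 0.10 ± 0.06 (interval -0.04 to 0.25; limma, adjusted p = 0.419). Rbl2, known as the pocket protein of resting cells, was at 8.04, 8.75 and 8.71 FPKM at P1 and at 7.91, 7.83 and 8.38 at P2, a log2 change of -0.07 ± 0.05 (interval -0.19 to 0.05; adjusted p = 0.497). Each gene overlapped between the ages when taken alone. With equal library sums Rbl2 was called lower (limma, adjusted p = 0.0252) and Rbl1 was not (adjusted p = 0.551). With these sums 2394 of all 13624 genes were called lower. Rbl2 was not called with median ratio scaling (limma, adjusted p = 0.360) or quantile normalization (adjusted p = 0.303).

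Within the pocket protein family the shares and ratios did not overlap between the ages, as did the ratios of 26% of all pairs of tested genes above 0 in every library. Rb1 made up 51.3% ± 1.20 of the summed FPKM at P1 and 55.4% ± 1.42 at P2, Rbl1 25.3% ± 0.537 and 24.6% ± 0.395, and Rbl2 23.4% ± 0.669 and 19.96% ± 1.39. The ratio of Rb1 to Rbl2 was 2.06, 2.23 and 2.28 at P1 and 2.69, 3.10 and 2.58 at P2, a log2 difference of 0.34. The ratio of Rbl1 to Rbl2 was tight at P1 (1.07, 1.08 and 1.09) and higher at P2 (1.18, 1.35 and 1.19), a log2 difference of 0.19. The ratio of Rb1 to Rbl1 was higher at P2 as well (2.02 ± 0.0891 against 2.25 ± 0.0743). Each of these 3 ratios and each of these 3 shares had an exact permutation p of 0.1, the smallest that 3 against 3 allows.

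**Figure D3:**
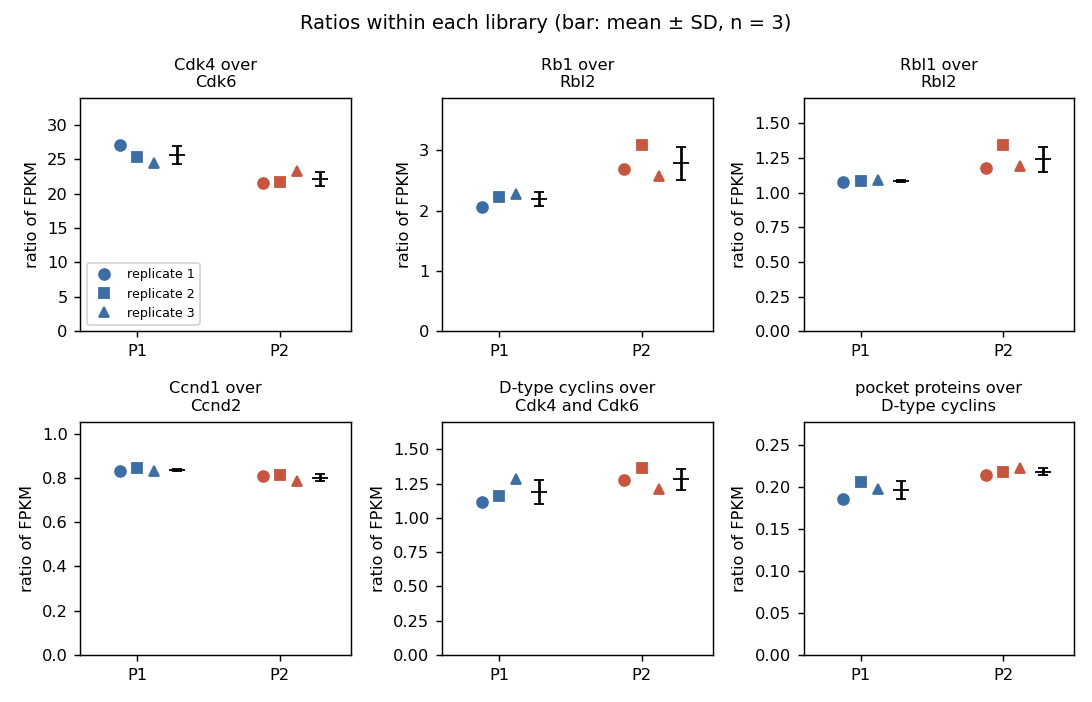
Ratios of FPKM formed within each library (vertical axes, each from 0) at P1 and P2; symbols mark the replicate number and bars the mean ± SD of 3 libraries. The ages separate in the panels except for D-type cyclins over Cdk4 and Cdk6 (1.12 to 1.29 at P1, 1.21 to 1.36 at P2). The panels show a part of the 12 ratios formed, of which 6 were higher in every P2 library, 3 lower and 3 overlapped. Both ratios to Ccnd3 overlapped and are not shown. Of all pairs of tested genes above 0 in every library, 26% had a ratio that did not overlap between the ages.

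In all, 12 ratios were formed between members or between the sums of their roles, some of them after the values had been seen. Of these, 6 were higher in every P2 library, 3 lower and 3 overlapped. The exact permutation p was 0.1 for the 9 that did not overlap, or 0.133 with Benjamini-Hochberg adjustment over the 12. Many pairs of genes behave this way in these libraries: of all pairs of tested genes above 0 in every library, 26% had a ratio that did not overlap between the ages. The 12 ratios share members with each other and some are of sums, so they are not separate results to count against that percentage. The summed pocket proteins were at 36.3 ± 2.68 FPKM at P1 and 40.4 ± 2.07 at P2. Relative to the summed D-type cyclins they were 0.196 ± 0.0103 at P1 and 0.218 ± 0.00411 at P2. Relative to summed Cdk4 and Cdk6 they were 0.233 ± 0.0243 and 0.280 ± 0.0152. D-type cyclins relative to Cdk4 and Cdk6 were 1.19 ± 0.0879 and 1.28 ± 0.0763, and these values overlapped.

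Around the members, 102 of 106 genes of 10 lists were tested, and 0 were called by limma over all genes. With equal library sums 15 of the 102 were called, among them Myc, Dyrk1b, Ambra1 and Ccng2, where 2433 of all 13624 genes were, and Ccng1 was called when genes listed at 0 in a library were left out. At an unadjusted p under 0.05 there were 25, against 18.6% of all tested genes. P2 lay above P1 in all libraries for 22 of the 102 (14.4% of all genes) and below for 11 (10.6% of all genes). The smallest adjusted p was 0.0759. The lists are described by counts alone, and the count with equal library sums, which places most genes lower, is given beside each. With equal sums the median of all genes was -0.14, so a gene with a negative change can lie above that median.

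Upstream of the D-type cyclins, regulators that respond to growth signals were mixed, with 8 of 13 tested members higher at P2 (2 with equal sums), 5 lower and a median log2 change of 0.06. Myc, a transcription factor known in human cells to bind E-boxes of the CDK4 promoter, was at 6.78, 7.41 and 6.67 FPKM at P1 and at 4.39, 5.10 and 5.44 at P2. The ages were well separated, with a log2 change of -0.41 ± 0.08 (limma, adjusted p = 0.119, and 0.0234 to 0.323 over the alternatives). A part of Myc in the difference of Cdk4 was not tested. Ets1, a transcription factor that is abundant in endothelial cells, was higher at P2 (38.4 ± 2.52 against 45.7 ± 1.85 FPKM; adjusted p = 0.146).

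Genes for the phosphorylation and turnover of D-type cyclins were lower at P2 in 6 of 9 members (9 with equal sums), with a median of -0.07. Dyrk1b, a kinase that phosphorylates D-type cyclins for degradation, was at 11.07 ± 0.555 FPKM at P1 and 9.41 ± 0.208 at P2 (log2 change -0.21 ± 0.05; limma, adjusted p = 0.135, and 0.0237 with equal sums). Ambra1, the substrate receptor of the ubiquitin ligase for D-type cyclins, was at 9.998 ± 0.454 and 8.90 ± 0.324 FPKM (-0.15 ± 0.05; adjusted p = 0.202, and 0.0291 with equal sums). Both lay lower in every P2 library than in any P1 library.

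The inhibitors of these kinases were higher at P2 in 5 of 5 tested members (3 with equal sums), with a median log2 change of 0.21. This median was 0.13 without P1 replicate 1, 0.10 with no filter on low values and 0.04 with equal sums. Relative to the median of all genes it was 0.19 on the deposited scale and 0.18 with equal sums. Cdkn1a (p21), a p53 target that binds Cdk2, was at 18.8, 19.4 and 20.99 FPKM at P1 and at 21.4, 26.4 and 25.9 at P2 (0.30 ± 0.09; limma, adjusted p = 0.182). Cdkn2d (p19), an INK4 inhibitor of Cdk4 and Cdk6, was at 28.6 ± 2.44 and 33.01 ± 1.18 FPKM (0.21 ± 0.07; adjusted p = 0.202). Both were separated by age without passing the test. Cdkn2a and Cdkn2b, INK4 genes linked to senescence, stayed below 1 FPKM in every library and were not tested. The CDK activating kinase, which phosphorylates the activation loop of Cdk4, Cdk6 and Cdk2, was higher in 3 of 3 subunits (0 with equal sums), among them Cdk7 (7.60 ± 0.213 against 8.46 ± 0.226 FPKM; adjusted p = 0.190) and Ccnh (17.1 ± 0.113 against 19.2 ± 1.41; adjusted p = 0.234). With equal sums 3 of 3 subunits still lay above the median of all genes.

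Downstream of the pocket proteins, the E2F factors and their DP partners were evenly divided, with 5 of 10 higher (0 with equal sums), 5 lower and a median of 0.00. The activator E2f1 was at 12.4 ± 0.503 and 13.5 ± 0.885 FPKM (limma, adjusted p = 0.339), and the partner Tfdp2 at 9.11 ± 0.640 and 8.39 ± 0.361 (adjusted p = 0.404). In the MuvB core, which joins Rbl1 or Rbl2 to form a repressor complex, and its partner B-Myb, 2 of 6 were higher (0 with equal sums) and 4 lower, with Lin54 at 6.54 ± 0.509 and 7.06 ± 0.323 FPKM (adjusted p = 0.462) and Mybl2 at 6.35 ± 0.869 and 5.60 ± 0.510 (adjusted p = 0.472). E2F target genes of S phase were higher in 14 of 18 (5 with equal sums) with a median of 0.06, among them the replicative helicase subunit Mcm2 (26.3 ± 0.624 against 29.9 ± 0.718 FPKM; adjusted p = 0.126). The later cyclins Ccne2 (9.67 ± 1.31 against 11.9 ± 1.07 FPKM; adjusted p = 0.249) and Ccna2 (43.4 ± 6.72 against 52.9 ± 6.92; adjusted p = 0.343) belonged to a list with 4 of 5 tested members higher (2 with equal sums).

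Proliferation markers were higher at P2 in 8 of 8 genes (6 with equal sums), with a median log2 change of 0.20 against 0.01 for all genes and none called. The median was 0.13 without P1 replicate 1 and 0.04 with equal sums. Relative to the median of all genes it was 0.18 both on the deposited scale and with equal sums. Cdc20, an activator of the anaphase promoting complex, was at 22.6 ± 1.82 and 28.03 ± 3.05 FPKM (limma, adjusted p = 0.200), and the centromere protein gene Cenpf at 7.16 ± 0.195 and 8.27 ± 0.0778 (adjusted p = 0.134). In P1 replicate 1, where Rb1 was lowest, Cdc20 (20.5 FPKM) and Ccna2 (35.7 FPKM) were also at their lowest. The part of the proliferation genes in the difference of Rb1 was not tested. Other cyclins and cyclin-dependent kinases were divided (14 of 25 higher, 6 with equal sums, median 0.01), and the p53-responsive cyclin Ccng1 was higher (87.8 ± 5.69 against 115.6 ± 2.41 FPKM; adjusted p = 0.0759, and 0.0305 without genes listed at 0) while Ccng2, a related atypical cyclin, was lower (17.8 ± 1.85 against 13.8 ± 0.859; adjusted p = 0.146, and 0.0237 with equal sums).

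**Figure D4:**
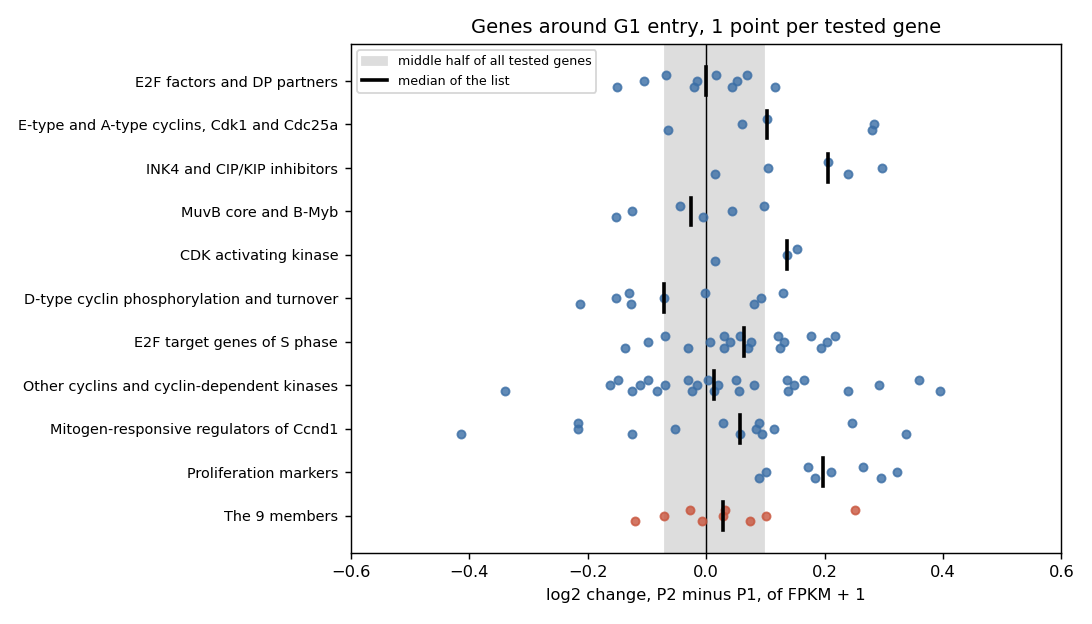
Log2 change from P1 to P2 of FPKM + 1 (horizontal axis) for each tested gene of 10 lists around G1 entry (blue) and the 9 members (red), with black bars for the median of a list and grey for the interquartile range of all tested genes. Inhibitors (median 0.21) and proliferation markers (0.20) have all tested genes to the right of 0 on the deposited scale (3 of 5 and 6 of 8 with equal library sums), while E2F factors centre on 0.00. With equal sums 4 of 5 inhibitors and 8 of 8 proliferation markers lay above the median of all genes.

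The genes whose log2 values were most like each member over the 6 libraries were found among 12009 tested genes with established symbols. For Rb1 they were Cdca8 and Prc1 (Pearson r = 0.997 and 0.996), and for Rbl1 Kifc5b and Mad2l1 (0.993 and 0.993). For Cdk4 they were Pdgfa and Bicdl1 (0.994 and 0.992), for Cdk6 Larp4b and Kctd12b (0.994 and 0.992), and for Rbl2 Upf3b (0.996). Ccnd1 was closest to Stard7 and Naca (0.994 and 0.985), Ccnd2 to Cltc and Nicn1 (0.992 and 0.991), Ccnd3 to Zfp664 and Supt7l (0.987 and 0.974), and Cdk2 to Pigg and Hnrnpul2 (0.991 and 0.986). These are descriptions over 6 libraries that share scaling, and each gene named is the best of many candidates. Among the members themselves Rb1 and Rbl1 (0.939) and Rb1 and Cdk6 (0.922) were the closest pairs.

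All members except Rbl1 share exon sequence with a neighbour on the opposite strand in the GENCODE M21 annotation of GRCm38, and strand use is likewise not given in the sources used here. Cdk4 (chromosome 10, 127063534 to 127067920) shares 641 exon bases with Tspan31, whose level was 35.6 to 40.2 FPKM. Rb1 (chromosome 14, 73183673 to 73325822) shares 488 with Rcbtb2 (25.4 to 29.2 FPKM) and 408 with Lpar6 (5.49 to 6.23 FPKM). Rbl2 (chromosome 8, 91070057 to 91123844) shares 693 with Aktip (17.6 to 19.7 FPKM) and 892 with Gm45464, for which no level is given, and Ccnd1 (chromosome 7, 144929931 to 144939925) shares 1100 with LTO1 (8.32 to 10.6 FPKM). Ccnd3 (chromosome 17, 47505051 to 47599691) shares 361 with Bysl (17.2 to 17.996 FPKM), and Cdk2 (chromosome 10, 128697939 to 128705031) shares 34 with Pmel, which was below 0.5 FPKM. Ccnd2 (chromosome 6, 127125162 to 127152193) shares 372 with the antisense gene Gm43126 and 368 with the antisense gene 9330179D12Rik (0.857 to 1.42 FPKM). Cdk6 (chromosome 5, 3341485 to 3531008) shares 368 with the antisense gene Gm17590. For Gm43126 and Gm17590 no level is given. Rbl1 (chromosome 2, 157145893 to 157204534) shares no exon base with another gene. The levels of the overlapped members are uncertain to that extent.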

How the data were processed

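The authors deposited FPKM in a single table that gives each of 6 libraries of polyadenylated ventricular RNA (P1 and P2, 3 each) a column and each of 39171 Ensembl genes a row. Per the submitters' processing notes, the tools named were FastQC, TopHat2, Cuffdiff 2.2.1 and R 3.2; build, annotation, scaling and strand use are likewise not given in the sources used here. FPKM hold no counts, so counting error is unknown. Groups came from sample titles, and symbols from GENCODE M21 (37605 of 39171 matched). The 13624 genes whose mean reached 1 FPKM were tested with limma (3.58.1, R 4.3.3) on log2(FPKM + 1), which understates changes of low genes, with age as the only factor, a variance trend and Benjamini-Hochberg adjustment (called under 0.05, two-sided). Ratios within a library were compared by exact permutation (scipy 1.17.1). The fit was tested on simulated data, where it called 73% of planted log2 changes of 0.5 and 94% of those of 1. Smaller changes, such as those of the members, were not planted. The members and lists were chosen with earlier results of these data known. Named genes were all members, the called or the 2 lowest-p genes of each list, and the 2 genes most like each member. Some genes that this rule names are not reported here. Further genes shown (Cdkn2a, Cdkn2b, overlapping genes), the motifs and some ratios were chosen after their values were seen. Alternatives were another pseudocount, filters, scalings, variance model, threshold, the replicate number as a block and each library left out; leaving out genes listed at 0 was added after seeing the data.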

Additional observations from a re-analysis of the deposited data

How the results depend on the processing

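The count of calls over all genes (22; 10 higher, 12 lower at P2) depended on the settings. It was 40 (18 and 22) with a pseudocount of 0.1, 34 (16 higher) with no filter, 41 (17 and 24) with a mean of at least 5 FPKM, 14 (7 lower) without a variance trend, 104 (50 and 54) at an adjusted p under 0.10 and 111 (49 and 62) when genes with a 0 in 1 or more libraries were left out, a setting chosen after seeing the data. Leaving out 1 library gave 5 to 25 calls, 2 to 13 higher and 2 to 12 lower. It gave 5 without P1 replicate 1 or P1 replicate 2, 11 without P2 replicate 1 and 12 without P2 replicate 2. With the replicate number as a block it was 5 (3 and 2). Deviations of same-numbered libraries correlated at -0.011, 0.101 and 0.009. The replicate 2 libraries correlated best with their own number, and the replicate 1 and replicate 3 libraries did not. With 3 libraries per age these values cannot decide whether the numbers pair the samples. The block lowered the SE of Rb1 (0.08 to 0.06) and raised that of Cdk4 (0.04 to 0.05). No member was called under these settings. Equal FPKM sums shifted the median of all genes to -0.14 and gave 2433 calls (39 and 2394). Then 2 members were called lower, Cdk4 (-0.29, or -0.15 relative to that median) and Rbl2 (-0.22, or -0.09), and signs turned for Ccnd2 (-0.14), Cdk6 (-0.0731), Cdk2 (-0.14), Rbl1 (-0.0532), E2f1 (-0.0429), Lin54 (-0.0507), Cdk7 (-0.0157) and Ccnh (-0.0086). Median ratio scaling gave 17 calls (8 and 9), none of them a member, and every member kept its sign. With quantile normalization Ccnd2 was at -0.0009. Leaving out 1 library also turned the sign of changes near 0: Ccnd1 (-0.0927 to 0.0194), Ccnd2 (-0.0236 to 0.0809), Ccnd3 (-0.0275 to 0.0145), Cdk2 (-0.0222 to 0.0914), the log2 ratio of Ccnd1 to Ccnd3 (-0.0674 to 0.0227) and the share of Ccnd3 (-0.9983 to 0.4841 percentage points). Rb1 kept its sign under every alternative run (0.09 to 0.30), as did Cdk4 (-0.29 to -0.10). The number of members with no overlap between the ages was 0 higher and 5 lower with equal sums (1.68% and 41.9% of all genes), and 3 higher and 3 lower with quantile normalization (13% and 13.7%). The causes were not tested, and the depth that limits these values is unknown.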
